A study of Mus musculus with 32 samples.

Results

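The maturation of oocytes from vitrified mouse follicles was described by comparing 12 metaphase II (MII) oocytes with 4 germinal vesicle (GV) oocytes, 16 of the 32 single oocytes sequenced. Members were chosen by their labels alone: every oocyte whose follicle had been vitrified and whose stage was given as GV or MII. All mice were wild type (WT), and no strain or age is given in the sources used here. Vitrification, storage in a glass-like frozen state, was applied to preantral follicles, which were then grown in encapsulated culture. GV oocytes came from grown follicles on day 8, and MII oocytes were ovulated on day 9 after the induction of ovulation. The labels of MII oocytes give their follicles as post-hCG (human chorionic gonadotropin), and those of GV oocytes name no hCG. The remaining 16 oocytes, 4 GV and 12 MII, came from fresh follicles of the same culture system. They were fitted in the same model, so they also enter the gene filter, the scaling and the estimate of spread. Their own stage difference is set beside that after vitrification below, to ask whether it differed between treatments. Each oocyte is labelled as a biological replicate, but the mouse or culture run behind it is not given, so the p-values measure the spread between these oocytes.

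A fully grown GV oocyte is arrested in the first meiotic prophase, held there by cyclic AMP and protein kinase A. On the ovulatory signal CDK1 and cyclin B become active, the nuclear envelope breaks down, the spindle forms, a polar body is extruded and the egg arrests again at metaphase II under the Mos-MAPK pathway. Transcription is silent through these steps, so the egg works with stored maternal mRNA: some messages are given longer poly(A) tails and translated, and many others lose their tails and are degraded. SMART-Seq v4, the kit used, primes cDNA synthesis on poly(A) tails. A change in a value can therefore be a change in the number of transcripts or in the length of their tails, and the 2 cannot be told apart in these data.

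Total counts ran from 11159677 to 16554201 in the 4 GV oocytes and from 5300210 to 12206521 in the 12 MII oocytes. MII oocytes held fewer detected genes, 10332 ± 629 (SD, n = 12) against 11336 ± 430 (SD, n = 4) in GV oocytes (two-sided exact permutation test, adjusted p = 0.0201 over 5 measures). With every oocyte thinned to 5300210 counts the numbers were 10245 and 11050 (adjusted p = 0.0371, exact). The adjusted p of the thinned difference rose above 0.05 without GV replicate 2 (−689, exact permutation, adjusted p = 0.0857), 3 (−784, p = 0.0824) or 4 (−728, p = 0.0813) or MII replicate 2 (−766, p = 0.0540), 3 (−746, p = 0.0531) or 4 (−757, p = 0.0504), and that of the unthinned difference without GV replicate 2 (−903, p = 0.0577) or 4 (−921, p = 0.0659). The 100 most abundant genes of an oocyte took 39.3% ± 4.22 (SD) of its counts in MII and 24.5% ± 5.06 (SD) in GV oocytes, and this exact permutation p of 5.49e-04 (adjusted p = 0.00275) is the smallest the design can give. Of 10 oocyte markers, all but Figla were above 0 in each of the 16 libraries. Figla was at 0 in 2 of 12 MII oocytes. Of 21 cumulus and granulosa markers in the table, the expansion genes Ptgs2, Ptx3, Tnfaip6, Areg and Ereg were at 0 in all GV oocytes. Others were not: Has2, also an expansion gene, reached 1.37 CPM (counts scaled to a library of 1e6) in GV oocytes, Inha 47.2 CPM and Inhba 21.7 CPM. In MII oocytes the highest values of Has2, Inha and Inhba were 0.945, 192 and 12.5 CPM. The summed level of the 21 markers ran from 60.2 to 106 CPM in GV oocytes and from 46.7 to 191 CPM in 11 MII oocytes, while MII replicate 12 stood at 774 CPM.

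Of the 4 GV oocytes, replicate 1 stood apart in 17 of the 19 flagged values described at the end. Mia2 and Clec2h, near 0 in every GV oocyte, are among the 17. The distance of replicate 1 to the mean profile of the others (1 minus Spearman's rho) was 0.117, against 0.0379, 0.0829 and 0.0464 for replicates 2, 3 and 4. That distance was the largest but was not itself flagged. Results that turn on replicate 1 are given without it as well. Stage also coincides with library series: GV libraries carry numbers of 81 and over and MII libraries numbers of 25 and under. The deposited GV values were all whole, whereas 11.7% to 19.7% of the values of each MII oocyte were not, so the stages may also have been quantified in different ways. Stage, day, hCG, library series and quantification cannot be told apart for any gene below.

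Which transcripts changed as oocytes of vitrified follicles matured? With the quasi-likelihood F test of edgeR and Benjamini-Hochberg adjustment at 0.05, 2678 of 11470 tested genes were higher in MII oocytes (23.3%) and 3861 were lower (33.7%), 57.0% in either direction. At least a 2-fold difference was met by 2342 of the higher (20.4% of those tested) and 3652 of the lower genes (31.8%). The groups did not overlap for 1515 genes in which all MII oocytes were above all GV oocytes (13.2%) and for 2374 in which all were below (20.7%). The median log2 fold change over all tested genes was −0.34. Scaling to total counts without the trimmed mean of M values lowered that median to −0.81, a shift of −0.47, and gave 1945 genes higher and 4703 lower. Of genes named below as higher, Mos, Gpr3, Aurkb, Bub1b, Ctcf, Dcp1a, Bmp15, Sohlh2, Psmd2 and Rack1 did not pass under that scaling, and Cnot6l, Omt2b and the chaperone Hsp90aa1 (0.08 and not called here, −0.45 there) passed as lower. With MII library numbers of 20 and over alone the calls of Mos, Mad2l1, Dazl, Cnot1, Adcy3, Cdc25b, Mapk3, Pabpc1 and Rack1 were lost. Of the 6599 genes with whole values in every MII oocyte 11.5% were higher and 40.6% lower, and of the 4871 others 39.5% were higher and 24.3% lower. A value of 0 counts as whole, so this division is not independent of the level in MII oocytes. Refitted on genes with whole values alone, 1284 were higher and 1745 lower of 6307. With only the 16 vitrified oocytes in the fit, 2589 genes were higher and 3529 lower of 10316. List medians below are read against the median of all genes, and counts of called members against the 23.3% higher and 33.7% lower. Counts of members without overlap are read against the 13.2% above and 20.7% below.

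**Figure D1:**
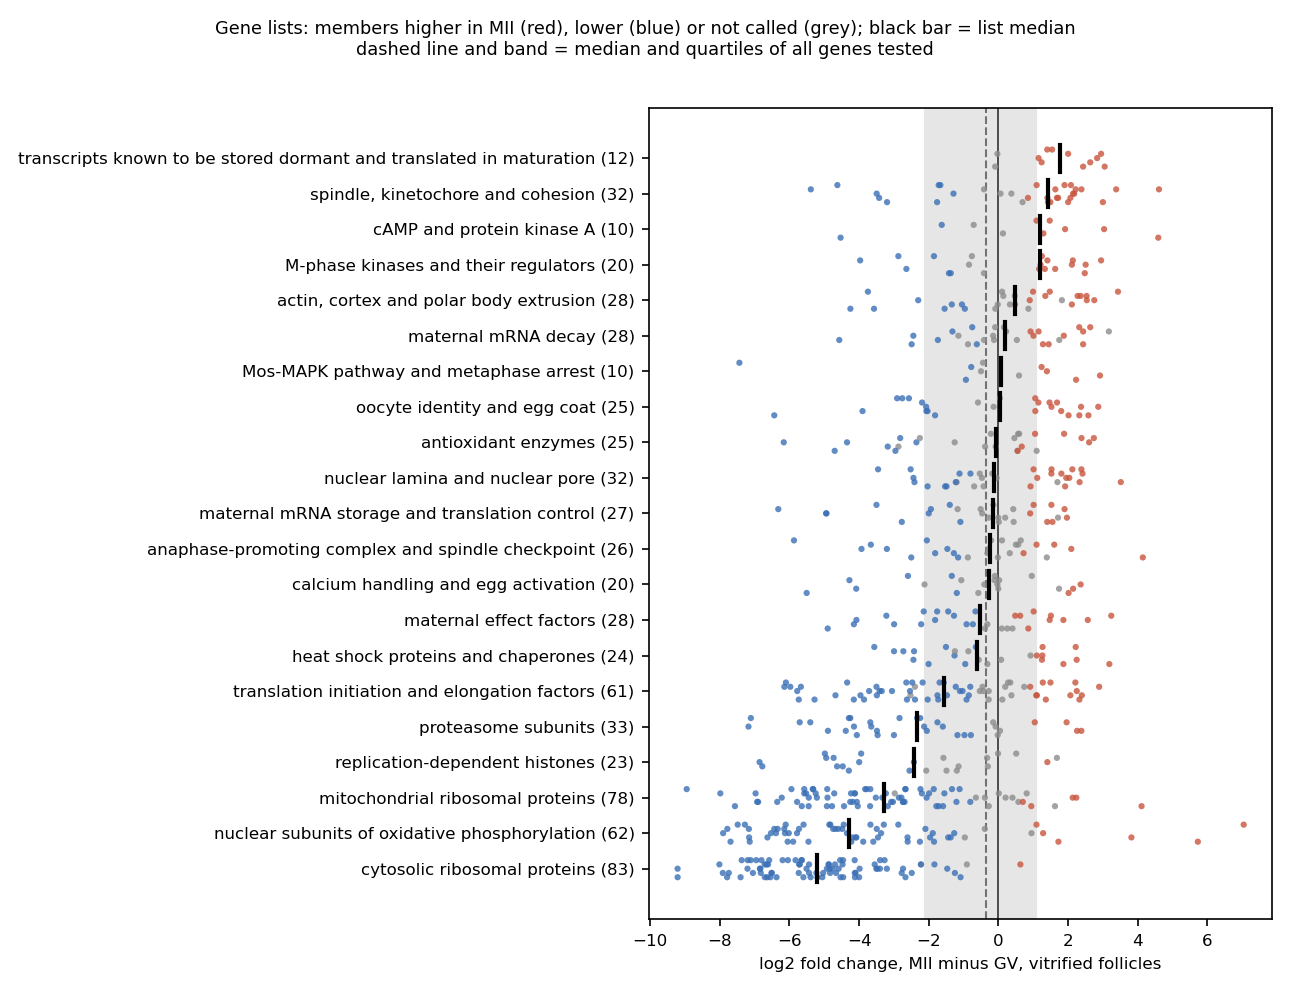
Log2 fold change of MII against GV oocytes of vitrified follicles (x axis) for each tested member of 21 gene lists (rows, with the number tested), coloured by the edgeR call; black bars mark list medians, the dashed line the median of all genes (−0.34) and the grey band their quartiles (−2.11 to 1.07). Lists of the spindle and of dormant messages lie to the right of the band's centre and those of the ribosome, respiratory chain and proteasome to its left, with members of both colours in most lists.

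Transcripts of M-phase kinases and their regulators were higher in MII oocytes in 11 of 20 members and lower in 6, with a median log2 fold change of 1.19 against −0.34 for all genes. Their summed level ran from 2509 to 5695 CPM in GV and from 11503 to 20317 CPM in MII oocytes. Ccnb1 (ENSMUSG00000041431.16, chromosome 13, 100778650 to 100786570, minus strand, GRCm38), the cyclin that activates CDK1, had 2442, 1208, 453 and 758 CPM in GV replicates 1 to 4 and 5724, 9071 and 13196 CPM as the lowest, median and highest of the MII oocytes. The groups did not overlap, although GV replicates 1 and 2 held more than replicates 3 and 4, and the log2 fold change was 2.95 ± 0.36 (SE, adjusted p = 1.12e-08 by edgeR). Values of Ccnb1 were not whole in 10 of 12 MII oocytes. Wee2, the oocyte kinase that restrains CDK1, had whole values throughout, with 628, 549, 394 and 455 CPM in GV oocytes and 1782, 2239 and 2659 CPM as lowest, median and highest in MII oocytes. Every MII oocyte was above every GV oocyte (2.11 ± 0.17, SE, adjusted p = 1.43e-12 by edgeR).

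Other members that rose were the cyclin Ccna2 (2.48), the Greatwall kinase Mastl (2.51), the CDK1-inhibiting kinase Pkmyt1 (2.14), Plk1 (1.63), Aurka (1.41) and Ccnb2 (1.34). The transcript of CDK1 itself moved the other way. Cdk1 measured 211, 159, 106 and 157 CPM in GV oocytes and 17.3, 22.4 and 51.0 CPM (lowest, median and highest) in MII oocytes, with no overlap (−2.64 ± 0.33, SE, adjusted p = 1.76e-08 by edgeR). The CDK1-activating phosphatases Cdc25b (−1.37) and Cdc25c (−3.97) fell too, as did Wee1 (−2.87), the somatic counterpart of Wee2, and Ensa (−1.85), the Greatwall substrate. Wee1 overlapped between the stages. It had 0.984 CPM in GV replicate 1 and 14.4 to 16.7 CPM in the other GV oocytes, against a median of 1.29 CPM in MII oocytes. Cdc25b lost its call without GV replicate 3 (−1.21, adjusted p = 0.105 by edgeR) and without GV replicate 4 (−1.02, adjusted p = 0.173 by edgeR). It also lost the call with only the 16 vitrified oocytes in the fit (−1.38, adjusted p = 0.0502 by edgeR).

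**Figure D2:**
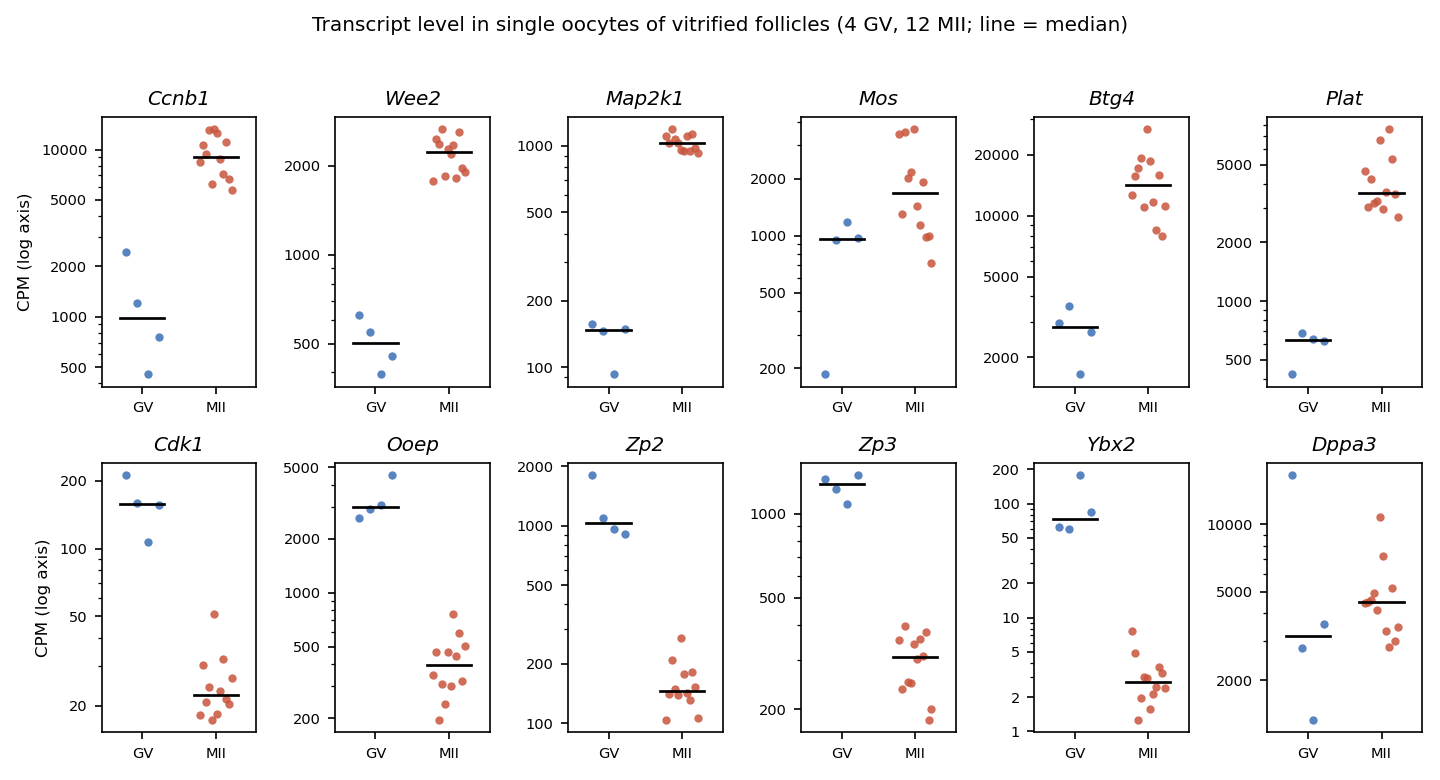
CPM of 12 genes (log axes, scaled to each gene) in every oocyte of vitrified follicles; points are single oocytes in order of replicate number from left to right, 4 GV in blue and 12 MII in red, and lines are medians. Ccnb1, Wee2, Map2k1, Btg4 and Plat lie higher in all MII oocytes, Cdk1, Ooep, Zp2, Zp3 and Ybx2 lower in all, and Mos and Dppa3 overlap, with GV replicate 1 apart from the other GV oocytes for both.

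The Mos-MAPK pathway, which keeps the egg at metaphase II, had 4 members higher and 3 lower of 10, with a median of 0.08 (−0.41 with total-count scaling). Map2k1, the kinase between Mos and ERK, had 158, 146, 93.1 and 149 CPM in GV oocytes and a narrow range of 922 to 1183 CPM, with a median of 1029, in MII oocytes (2.92 ± 0.21, SE, adjusted p = 6.84e-14 by edgeR). Fbxo43, known as Emi2 and the inhibitor of the anaphase-promoting complex in the arrested egg, measured 69.6, 98.7, 78.9 and 109 CPM in GV and 283, 415 and 523 CPM (lowest, median, highest) in MII oocytes, without overlap (2.23 ± 0.28, SE, adjusted p = 1.63e-08 by edgeR). Mos had 186 CPM in GV replicate 1 and 944, 1182 and 973 CPM in replicates 2 to 4, against 717, 1680 and 3639 CPM as lowest, median and highest in MII oocytes. The groups overlapped, and its call (1.24 ± 0.48, SE, adjusted p = 0.0256 by edgeR) was lost without GV replicate 1 (0.92, adjusted p = 0.104 by edgeR). Mapk3, which encodes ERK1, was lower (−0.93), a call lost without GV replicate 3 (−0.65, adjusted p = 0.201) or replicate 4 (−0.75, adjusted p = 0.139), both by edgeR.

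Among 10 tested genes of cAMP and protein kinase A, which hold the GV arrest, 6 were higher and 2 lower, with a median of 1.20. Pde3a, the phosphodiesterase that degrades cAMP in the oocyte, had 8.86, 14.1, 14.5 and 4.82 CPM in GV oocytes and 70.2, 82.9 and 111 CPM (lowest, median, highest) in MII oocytes, without overlap (3.04 ± 0.29, SE, adjusted p = 8.72e-11 by edgeR). The regulatory subunits Prkar2a (1.48) and Prkar2b (1.92) rose, and the catalytic subunit Prkaca, at 0, 1.21, 0 and 2.99 CPM in GV oocytes, had 7.08 to 40.1 CPM in MII oocytes. The adenylyl cyclases Adcy3 (−4.53) and Adcy9 (−1.63) fell. Adcy3 was low, with medians of 1.87 CPM in GV and 0 CPM in MII oocytes and overlap. Its call was lost with DESeq2 (−4.68, adjusted p = 0.0689), and its value was −7.09 without MII replicate 12. Gpr3, the receptor that keeps the cyclase active, overlapped between the stages, and its call (1.10 ± 0.44, SE, adjusted p = 0.0328 by edgeR) was lost without GV replicate 1 (0.76, adjusted p = 0.132), replicate 2 (1.17, adjusted p = 0.0527) or replicate 4 (1.05, adjusted p = 0.0808), or MII replicate 10 (1.01, adjusted p = 0.0511), all by edgeR. Exons of Gpr3 and Pde3a, like those of Cdc20, Ube2s, Kif20a, Prc1, Cnot7, Slbp, Khdc3 and other genes named below, overlap other annotated genes. Whether counting used strand is not given, so reads of the overlapping genes may be included.

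Of 26 genes of the anaphase-promoting complex and spindle checkpoint, 5 were higher (19.2%) and 10 lower (38.5%), with a median of −0.25. These shares are near the 23.3% and 33.7% of all genes tested. Both directions occurred among genes with related roles. Cdc20, the activator of the complex at anaphase, had 123, 137, 106 and 151 CPM in GV oocytes and 358, 541 and 852 CPM (lowest, median, highest) in MII oocytes (2.10 ± 0.23, SE, adjusted p = 1.33e-09 by edgeR), whereas Fzr1, the activator that acts in the GV oocyte, fell by 3.20 on the log2 scale. Ube2s, the E2 enzyme that extends ubiquitin chains, rose by 4.15 ± 0.41 (SE) from 5.90 to 20.9 CPM in GV oocytes to 157 to 370 CPM in MII oocytes, while Ube2c, the E2 that starts them, fell by 1.46. The checkpoint genes Bub1b (1.10) and Mad2l1 (1.61) rose, and Bub1 (−2.50) and Ttk (−2.05) fell. Pttg1, the securin, did not pass the test (0.33 ± 0.41, SE, adjusted p = 0.517 by edgeR): GV replicate 1 had 11885 CPM and the other GV oocytes 1317 to 2869 CPM, and without that replicate the value was 1.36 (adjusted p = 0.00496 by edgeR).

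Genes of the spindle, kinetochore and cohesion were higher in 19 of 32 tested members (59.4%) and lower in 9 (28.1%), with a median of 1.42. Of all genes 23.3% were higher and 33.7% lower. In 17 of the 32 all MII oocytes were above all GV oocytes, against 13.2% of all genes tested. The largest rises were those of Kif20a and Prc1. Kif20a, a kinesin of cytokinesis, had between 8.15 and 47.5 CPM in the 4 GV oocytes and 514, 610 and 710 CPM (lowest, median, highest) in MII oocytes (4.61 ± 0.37, SE, adjusted p = 9.50e-13 by edgeR). Prc1, which bundles the microtubules of the central spindle, went from 283 to 309 CPM to 2178 to 5098 CPM (3.38 ± 0.28, SE), and the kinesins Kif18a (3.00), Kif11 (2.18) and Kif23 (2.15), the shugoshin Sgo2a (1.90) and the spindle assembly factor Tpx2 (2.00) rose as well.

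Subunits of one complex moved in opposite directions. In the Ndc80 complex, which ties microtubules to the kinetochore, Ndc80 (1.68) and Nuf2 (2.09) rose, whereas Spc24 (−5.39) and Spc25 (−3.42) fell. Spc24 had 211, 237, 191 and 230 CPM in GV oocytes and only 3.18, 4.68 and 9.05 CPM (lowest, median, highest) in MII oocytes, with whole values in all. In the chromosomal passenger complex Cdca8 (1.64) and Aurkb (1.17) rose, while Birc5 (−3.20) and Incenp (−1.66) fell. The cohesins Smc3 (1.43) and Smc1b (−1.29) and Stag3 (−4.62) were divided too, Stag3 from a median of 1.34 CPM in GV to 0 CPM in MII oocytes with overlap. Smc1b lost its call without GV replicate 1 (−0.65, adjusted p = 0.194 by edgeR).

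Messages known to be stored dormant in the GV oocyte and recruited to translation in maturation were nearly all higher. Of 12 members 10 were higher in MII oocytes (83.3%, against 23.3% of all genes), 0 lower, and the median was 1.77. In 8 of the 12 all MII oocytes were above all GV oocytes, against 13.2% of all genes tested. Recruitment is known to depend on the cytoplasmic polyadenylation element, a U-rich motif near the end of the 3′ UTR that CPEB1 binds, written as DNA TTTTAT or TTTTAAT. One of these lay within the last 150 bases of the 3′ UTR in 6 of the 12 members. Windows of 30 bases around the element, read from GENCODE M21 transcripts on GRCm38 with the element in capitals, are given for genes of this group and for Wee2, which rose, and Rpl5, a ribosomal protein gene which fell although its end holds the same letters.
Ccnb1, chr13:100778770-100778799, minus strand: ttgctgTTTTAATttatacatctgatatca
Btg4, chr9:51119801-51119830, plus strand: aaatccctTTTTATgtctttttaaaagttt
Cnot7, chr8:40493036-40493065, minus strand: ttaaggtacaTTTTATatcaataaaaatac
Plat, chr8:22782748-22782777, plus strand: tatttataTTTTAATctattttagttttta
Dcp1a, chr14:30527013-30527042, plus strand: atatatttTTTTAATaaaatttcaaaacca
Wee2, chr6:40466784-40466813, plus strand: tgtaaataaagaTTTTATcttatccaaaga
Rpl5, chr5:107908971-107909000, plus strand: actgaactTTTTAATaaatgagtcatttga

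Plat, tissue plasminogen activator and a classic message of this kind, had 422, 684, 637 and 628 CPM in GV oocytes and 2708, 3581 and 7596 CPM (lowest, median, highest) in MII oocytes (2.84 ± 0.35, SE, adjusted p = 1.27e-08 by edgeR). Slbp, which binds the stem-loop of histone mRNA, had 1977, 1210, 476 and 570 CPM in GV and 5461, 9262 and 11925 CPM in MII oocytes (3.05 ± 0.35, SE), with no overlap and with no element in the window searched. Dcp1a, a decapping factor, rose from 439 to 541 CPM to 657 to 1683 CPM (1.16 ± 0.28, SE). Values of Plat and Slbp were not whole in 11 and of Dcp1a in 12 of the 12 MII oocytes. The 3 members with whole values, Mos, Dcp2 and Itpr1, had a median of −0.03. Dcp2 (−0.09), the decapping enzyme, and Itpr1 (−0.03), the calcium release channel, did not pass the test. In the refit on genes with whole values alone both were called higher, Dcp2 at 0.75 and Itpr1 at 0.80 (adjusted p = 0.0256 and 0.0340 by edgeR). In the same refit 6 genes named as lower were not called: Fmn2 (−0.12, adjusted p = 0.712), Ube2c (−0.62, 0.148), Smc1b (−0.48, 0.364), Adcy9 (−0.77, 0.215), Pabpc1 (−1.91, 0.102) and Pabpc1l (−1.08, 0.0587).

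The machinery of maternal mRNA decay was higher in 10 of 28 members and lower in 7 (median 0.19, but −0.24 with total-count scaling). Btg4, the adaptor that brings the CCR4-NOT deadenylase to its targets, had 2968, 3595, 1652 and 2679 CPM in GV oocytes and 7962, 14189 and 26716 CPM (lowest, median, highest) in MII oocytes, so every MII oocyte held more than any GV oocyte (2.43 ± 0.31, SE, adjusted p = 3.63e-08 by edgeR). The deadenylase Cnot7 measured 910, 294, 129 and 174 CPM in GV and 1424, 2390 and 3504 CPM in MII oocytes, again without overlap (2.64 ± 0.41, SE, adjusted p = 1.11e-06 by edgeR). The second deadenylase Cnot8 (1.88), the exonuclease Xrn1 (2.32) and the m6A readers Ythdf2 (1.28) and Ythdf3 (2.44) rose with them. The scaffold Cnot1 (−1.32) and the subunit Cnot10 (−4.57) fell, and Cnot6l (−0.12 ± 0.26, SE, adjusted p = 0.709 by edgeR), a deadenylase of the maturing oocyte, did not pass.

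Factors that store maternal mRNA and control its translation were higher in 7 and lower in 9 of 27 (median −0.14), which at 25.9% and 33.3% is near the 23.3% and 33.7% of all genes tested. Single members moved far in both directions. Ybx2, the abundant mRNA-packaging protein MSY2, had 62.3, 59.8, 178 and 85.2 CPM in GV oocytes and 1.25, 2.71 and 7.59 CPM (lowest, median, highest) in MII oocytes (−4.94 ± 0.36, SE, adjusted p = 1.26e-13 by edgeR). Zar1l (−6.32), Eif4e1b (−3.50), the oocyte form of the cap-binding protein, Cpeb1 (−1.09), Pabpc1 (−2.77) and Pabpc1l (−1.94) fell as well, Pabpc1 with a call that was lost without GV replicate 4 (−2.38, adjusted p = 0.0647 by edgeR). Zar1, the relative of Zar1l, did not pass (0.44 ± 0.25, SE, adjusted p = 0.135 by edgeR), and Igf2bp2 (1.90), Dazl (1.40) and Lsm14a (1.52) rose. The list's median was 0.13 without GV replicate 1.

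Genes of oocyte identity and the egg coat were split, with 12 higher and 10 lower of 25 and a median of 0.05 (−0.43 with total-count scaling). The zona pellucida genes fell together. Zp2 had 1797, 1099, 964 and 906 CPM in GV and 104, 146 and 272 CPM (lowest, median, highest) in MII oocytes (−2.91 ± 0.32, SE, adjusted p = 1.06e-09 by edgeR). Zp3 had 1323, 1225, 1084 and 1368 CPM in GV and 183, 307 and 398 CPM in MII oocytes (−2.07 ± 0.28, SE), and Zp1 fell by 2.07 ± 0.39 (SE) with GV replicate 1 (134 CPM) inside the MII range of 35.2 to 151 CPM. The transcription factors of the follicle's early growth were divided: Figla had 40.8 to 58.8 CPM in GV oocytes and at most 1.78 CPM in MII oocytes, and Nobox (−2.03) and Lhx8 (−1.82) fell, whereas Sohlh2 (2.33) rose, from a median of 4.52 to 33.2 CPM with overlap.

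The secreted growth factors of the oocyte rose instead. Gdf9 had 1227, 2315, 3390 and 2861 CPM in GV and 5026, 6768 and 8545 CPM (lowest, median, highest) in MII oocytes (1.47 ± 0.25, SE, adjusted p = 4.11e-06 by edgeR), and Bmp15, with overlap, rose by 1.06 ± 0.29 (SE, adjusted p = 0.00187 by edgeR). Ddx4 (2.38), the germ cell helicase, H1f8 (1.80), the oocyte linker histone, Bcl2l10 (1.69) and Rfpl4 (2.87), a ubiquitin ligase of the oocyte, were also higher. By CPM per kb of transcript, the most abundant messages were Elobl, Omt2b and Dppa3 in GV oocytes (8744, 5554 and 3815 per kb) and Tcl1, Zbed3 and Btg4 in MII oocytes (13782, 10618 and 9549 per kb).

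Maternal effect factors, which the embryo inherits, were higher in 9 and lower in 14 of 28, with a median of −0.52. Within the subcortical maternal complex, a structure of the egg's periphery needed for the first cleavages, members went apart. Khdc3 had 325, 908, 571 and 1207 CPM in GV and a median of 42.2 and a highest value of 58.0 CPM in MII oocytes (−4.15 ± 0.38, SE, adjusted p = 1.97e-11 by edgeR). Ooep (−2.99 ± 0.31, SE) and Tle6 (−2.22 ± 0.31, SE) fell as well, Nlrp5 did not pass (0.26 ± 0.41, SE, adjusted p = 0.622 by edgeR), and Nlrp4f (2.57) rose. Zbed3, another member, had 940, 2577, 3167 and 2054 CPM in GV oocytes and 12447, 20652 and 25987 CPM in MII oocytes (3.24 ± 0.28, SE, adjusted p = 5.77e-12 by edgeR).

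Of factors that act on the zygote's chromatin, Npm2 (−3.22), the histone chaperone that opens sperm chromatin, and Dnmt1 (−1.82) fell, and Ctcf (1.01) and Kdm1b (1.51) rose. Dppa3, which guards maternal methylation, had 16599 CPM in GV replicate 1 and 2790, 1328 and 3566 CPM in replicates 2 to 4, against 2839, 4480 and 10830 CPM in MII oocytes. It was not called (−0.32 ± 0.41, SE, adjusted p = 0.532 by edgeR), and without GV replicate 1 it was called higher (0.94, adjusted p = 0.0404 by edgeR).

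Housekeeping complexes were lower in MII oocytes. Of 83 cytosolic ribosomal protein genes 80 fell (96.4%, against 33.7% of all genes), with a median of −5.20. In 75 of the 83 all MII oocytes were below all GV oocytes, against 20.7% of all genes tested. The summed level of the 83 genes ran from 15744 to 22155 CPM in GV oocytes. It had a lowest value of 654 and a median of 1157 CPM in MII oocytes, each of which was below every GV oocyte. The highest MII sum was that of replicate 12, the oocyte with high cumulus markers. Rps29, of the small subunit, had 415, 430, 447 and 478 CPM in GV oocytes and 0.405, 1.29 and 4.48 CPM (lowest, median, highest) in MII oocytes (−7.91 ± 0.53, SE, adjusted p = 1.37e-14 by edgeR), with whole values in all. Rack1 (0.63), a scaffold on the small subunit, was the member called higher, a call lost without GV replicate 2 (0.57, adjusted p = 0.0648 by edgeR) or replicate 4 (0.57, adjusted p = 0.0657 by edgeR). Rpl9 (−2.22) and Rps2 (−0.90) were not called, but without MII replicate 12 Rpl9 was (−3.52, adjusted p = 0.0236 by edgeR). Many ribosomal protein genes have near-identical processed copies, so their counts may have been split or shared.

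Nuclear subunits of oxidative phosphorylation fell in 53 of 62 tested members and rose in 6 (median −4.28), and mitochondrial ribosomal proteins fell in 63 of 78 and rose in 5 (median −3.28). Ndufb4, of complex I, had 237, 171, 197 and 182 CPM in GV oocytes and 0.137, 1.38 and 2.65 CPM (lowest, median, highest) in MII oocytes (−7.16 ± 0.49, SE, adjusted p = 2.41e-14 by edgeR). The exceptions include Ndufa10 (1.29), Uqcrc2 (1.10) and the succinate dehydrogenase subunit Sdha (1.73). Proteasome subunits fell in 25 of 33 and rose in 4 (median −2.33). Every called subunit of the catalytic core fell, such as Psma7 (−2.05 ± 0.17, SE, from 1314 to 1754 CPM in GV to 269 to 480 CPM in MII oocytes). Most called subunits of the regulatory cap fell as well, such as Psmc5 (between −4.26 and −3.90 with each vitrified oocyte left out in turn). The 4 that rose, Psmd1, Psmd2 (1.05), Psmd3 (2.38) and Psmd11 (2.26), belong to the cap. The catalytic core here is the Psma and Psmb genes.

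Translation initiation and elongation factors were lower in 36 and higher in 12 of 61 (median −1.57), with Eef1d (−5.78) and Eif3g (−6.10) lower and Eif4a1 (2.90) and Eif5a (2.07) higher. Replication-dependent histones, whose mRNA as a rule has no poly(A) tail, fell in 12 of 23 tested members and rose in 1 (median −2.43), from a low summed level of 166 to 220 CPM in GV oocytes to 21.7 to 88.6 CPM in MII oocytes.

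**Figure D3:**
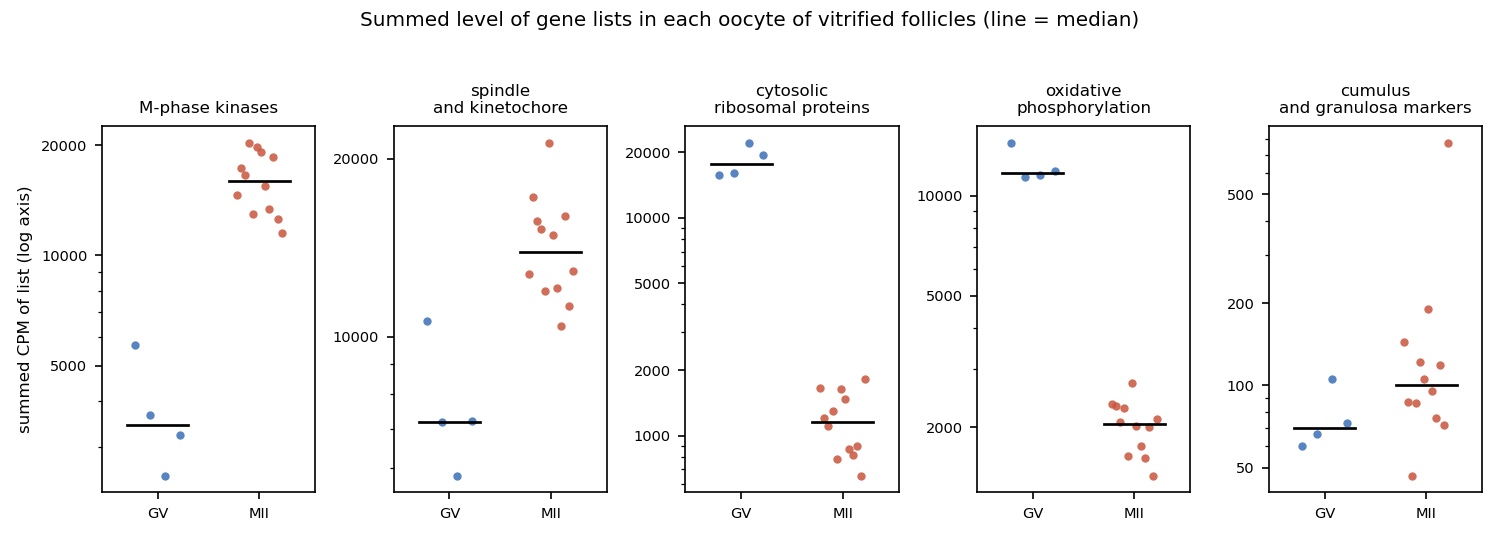
Summed CPM of 5 gene lists (log axes, scaled to each list) in the 4 GV (blue) and 12 MII (red) oocytes of vitrified follicles, in order of replicate number from left to right, with lines at the medians. Kinase and spindle genes sum higher in MII oocytes, with 1 GV spindle value (10629 CPM) inside the MII range, ribosomal and respiratory genes sum lower in every MII oocyte, and cumulus markers overlap apart from MII replicate 12 at 774 CPM.

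Genes of the nuclear lamina and pore, structures taken apart when the nuclear envelope breaks down, were higher in 14 and lower in 10 of 32 (median −0.11). Pore scaffold genes such as Nup98 (3.52), Nup93 (2.42), Nup160 (2.12) and Nup85 (2.04) rose, whereas the import receptors Kpnb1 (−2.44) and Kpna2 (−2.41), the mRNA export factor Nxf1 (−2.52) and Lmnb2 (−3.45) fell. Actin and polar body genes were higher in 12 and lower in 8 of 28 (median 0.48, but −0.0053 with total-count scaling). The contractile ring genes Ect2 (3.44), Anln (2.54) and Racgap1 (2.11) and the actin nucleator Spire1 (2.76) rose, while its relative Spire2 (−4.25), its partner Fmn2 (−0.96) and profilin, Pfn1 (−2.30), fell. In the Arp2/3 complex Arpc1b (2.36) rose, and Arpc1a (−3.57) and Arpc3 (−3.75) fell.

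Calcium and egg activation genes had 3 members higher (15%) and 6 lower (30%) of 20 (median −0.25), against 23.3% and 33.7% of all genes. The calmodulin genes Calm2 (−5.51) and Calm3 (−4.28) fell. The calcium channels Orai1 (−4.08) and Cacna1h (−2.60) fell, and Astl (2.02), the cortical granule protease ovastacin, and Sytl4 (2.15) rose. Heat shock proteins and chaperones were higher in 8 and lower in 10 of 24 (median −0.60): Hspa8 (−2.73) and its cochaperones Dnaja1 (−2.42) and Dnajb1 (−2.44) fell, and Hspa2 (2.25) and Hspa14 (3.19) rose. Antioxidant enzymes had 7 members in each direction of 25, or 28.0% against 23.3% higher and 33.7% lower of all genes. Their median of −0.08 turned to 0.43 without GV replicate 4 and to 0.62 in the refit on genes with whole values. Sod1, the cytosolic superoxide dismutase, had 246, 389, 717 and 488 CPM in GV and 3.84, 6.05 and 11.6 CPM (lowest, median, highest) in MII oocytes (−6.16 ± 0.33, SE, adjusted p = 5.53e-17 by edgeR), and Gclc (2.74), the rate-limiting enzyme of glutathione synthesis, rose.

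Of 14 tested cumulus and granulosa markers 3 were higher (21.4%) and 1 lower (7.14%), against 23.3% and 33.7% of all genes. Of 3 tested theca, blood and immune markers 2 were higher (median 2.21), and the summed level of that list ran from 13.1 to 22.2 CPM in GV and from 48.2 to 112 CPM in MII oocytes, without overlap. Most of it was Pecam1, an endothelial adhesion gene (median 14.3 CPM in GV and 65.5 CPM in MII oocytes). Acta2, smooth muscle actin, was at 0 in all GV oocytes and at a median of 1.02 CPM in MII oocytes. The part of these markers in other results was not tested. Of the cumulus and granulosa markers, Cyp19a1, aromatase, was present in all 16 oocytes, with 35.6, 40.4, 24.1 and 51.0 CPM in GV and 46.1, 79.3 and 115 CPM in MII oocytes. Tnfaip6 was listed at 0 in all GV oocytes and in 7 of 12 MII oocytes, with a highest value of 104 CPM. The list's median of 0.50 became −0.94 without MII replicates 1 and 12, a pair chosen from an earlier result of these data. Their summed cumulus markers were 144 and 774 CPM, and replicate 7, at 191 CPM, was kept. Without the pair 2622 genes were higher and 4000 lower. The fit behind these counts and the −0.94 also left out fresh MII replicates 1 and 11.

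Which single genes changed most? By size, among called genes whose mean log2 CPM was 5 or more, the largest falls included Gtsf1, a piRNA pathway factor, with 4538, 1312, 715 and 1015 CPM in GV oocytes and 8.94, 17.6 and 37.4 CPM (lowest, median, highest) in MII oocytes (−6.77 ± 0.35, SE, adjusted p = 2.71e-17 by edgeR). Timm17a, of the mitochondrial import channel, had 1817, 948, 823 and 911 CPM in GV and 5.80, 11.0 and 19.8 CPM in MII oocytes (−6.59 ± 0.44, SE), and Cpsf4l (−6.55), Setd4 (−6.39) and Elobl (−6.03) followed. In all 5, MII oocytes lay below GV oocytes without overlap. Elobl, related to the elongin B family by its name, went from 4968 to 8905 CPM down to 51.7 to 176 CPM.

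Among the largest rises, Mia2 was listed at 0.0895, 0, 0 and 0 CPM in GV oocytes and at 378, 556 and 624 CPM (lowest, median, highest) in MII oocytes, and H3f3b, a gene for the histone variant H3.3, at 0.0895 to 0.507 CPM in GV and 1659 to 4464 CPM in MII oocytes. Values of these were not whole in 10 and 11 of 12 MII oocytes, and H3.3 is encoded by a further, similar gene. Among the 352 eligible genes whose values were whole in all MII oocytes and whose exons overlap no other gene, a group formed after the values were seen, the largest rises were smaller. Lrrc8b, a subunit of the volume-regulated anion channel, had 1.79, 13.4, 9.62 and 10.3 CPM in GV oocytes and 182, 288 and 456 CPM in MII oocytes (5.00 ± 0.44, SE, adjusted p = 1.09e-11 by edgeR). The GTPase Rap1b (4.55), the ribonucleotide reductase subunit Rrm2 (3.11) and the replication licensing gene Mcm2 (3.24) were also among them. Among the falls of the same group was Gja4, connexin 37 of the gap junctions between oocyte and granulosa cells, with 236, 684, 1210 and 850 CPM in GV and 47.2, 64.0 and 107 CPM in MII oocytes (−3.39 ± 0.29, SE, adjusted p = 5.27e-12 by edgeR).

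Falls were concentrated in short transcripts. Genes with transcripts of up to 1 kb had a median log2 fold change of −3.18 (665 genes, 70.7% lower and 5.56% higher), those of 1 to 2 kb −1.10, of 2 to 3 kb −0.21, of 3 to 5 kb −0.03 and of over 5 kb −0.02 (2262 genes, 21.4% lower). The median transcript of the cytosolic ribosomal proteins was 860 bases and of the oxidative phosphorylation list 865 bases, against 3007 bases for all genes. List membership and length therefore move together, and the part of length in those lists was not tested.

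Genes that rose more often held the element at the end of the 3′ UTR. TTTTAT or TTTTAAT, searched on the transcript strand in the last 150 bases, occurred in 38.8% of the 2595 higher genes with a 3′ UTR of at least 50 bases, in 14.7% of the 3651 lower genes and in 25.2% of all 10986. The same letters in reverse order, TATTTT or TAATTTT, which can overlap the element, occurred in 37.1%, 18.8% and 27.1%. The higher genes were richer in A and T there, with a median of 66.0% against 58.0% in the lower genes. The median log2 fold change was −0.65 with no element, 0.39 with 1, 0.69 with 2 and 1.03 with 3 or more (87 genes). Within 4 classes of A and T content, of nearly equal size, from the lowest to the highest, genes with the element had medians of −0.27, −0.04, 0.32 and 0.77 and those without it −1.45, −0.80, −0.19 and 0.22. For the reversed letters the corresponding medians were −1.11, −0.25, 0.07 and 0.66 with them and −1.38, −0.74, −0.09 and 0.29 without. A match of letters is not a binding site, and genes are not independent replicates, so these shares are given as a description.

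**Figure D4:**
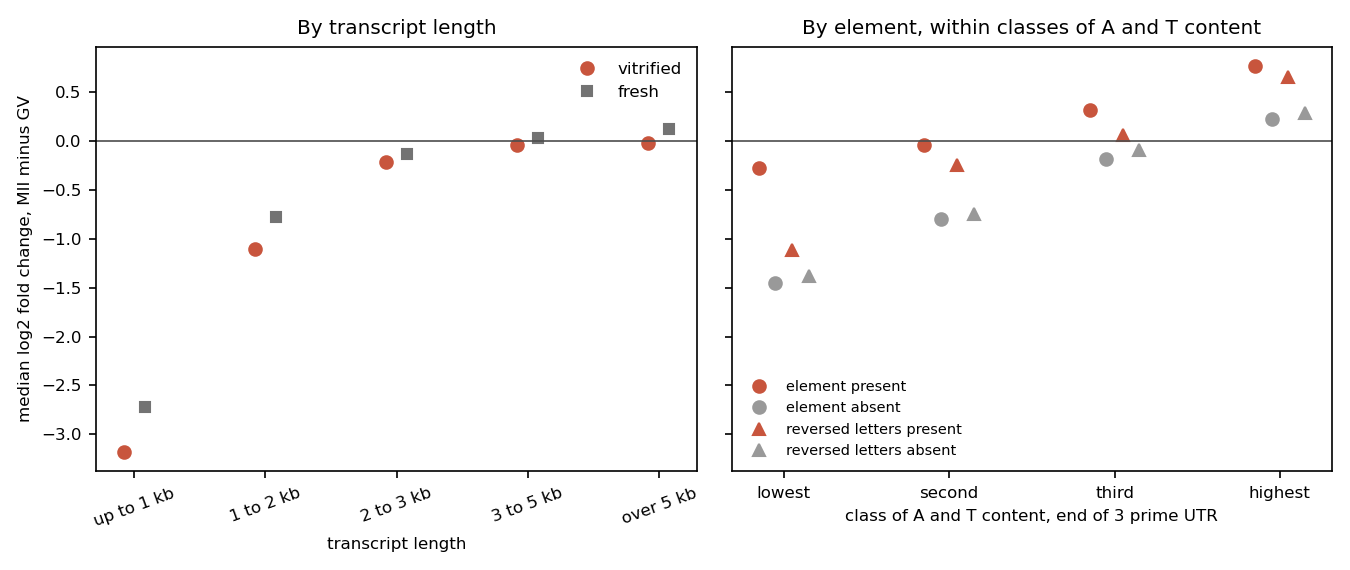
Median log2 fold change of MII against GV oocytes by transcript length (left; vitrified in red, fresh in grey) and, for vitrified oocytes, by the presence of the element (circles) or its reversed letters (triangles) within 4 classes of A and T content of the last 150 bases of the 3′ UTR (right; red present, grey absent). Medians climb from −3.18 for transcripts up to 1 kb to near 0 above 3 kb, and genes with the element lie above those without it in each class, −0.27 against −1.45 in the lowest and 0.77 against 0.22 in the highest.

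Did maturation differ after vitrification from that after fresh culture? In the same fit 2615 genes were higher (22.8%) and 3413 lower (29.8%) in fresh MII than in fresh GV oocytes. Of the genes called after vitrification 82.7% were called in the same direction in fresh oocytes, as were 89.7% of the 6028 fresh calls in vitrified ones, and 2 genes were called in opposite directions. Across the 11470 genes the fold changes of the separate sets of oocytes had Pearson's r of 0.90 and Spearman's rho of 0.91, a description over genes that share libraries. The same division of stage by library series and by quantification holds in both treatments.

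The difference between the treatments in their stage change, the interaction, was called for 0 of 11470 genes (0.0%) by edgeR, with 467 (4.07%) at an unadjusted p under 0.05, 224 higher and 243 lower. DESeq2 called 8. The 95% interval of the difference lay within a 2-fold change either way for 13.9% of genes, so for most genes a difference of that size was not excluded by these data. The smallest p belonged to Clec2h, a C-type lectin gene, and Khdrbs2, an RNA-binding protein gene (adjusted p = 0.0635 each by edgeR), and to Cpox, an enzyme of haem synthesis (adjusted p = 0.0676 by edgeR). Clec2h was near 0 in vitrified GV oocytes, with at most 0.0507 CPM, and had 6.21 to 23.6 CPM in vitrified MII oocytes. The fresh values of Clec2h and Khdrbs2 are not reported here. Cpox rose by 2.93 ± 0.32 (SE) after vitrification and by 1.04 ± 0.28 (SE) after fresh culture, and Pole3, a DNA polymerase and chromatin subunit, by 3.50 ± 0.25 and 2.25 ± 0.23 (SE; interaction adjusted p = 0.214 by edgeR).

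List medians after fresh culture, against those after vitrification, were 1.33 against 1.19 for M-phase kinases and 1.38 against 1.42 for spindle genes. For dormant messages they were 1.66 against 1.77, for cytosolic ribosomal proteins −4.61 against −5.20 and for oxidative phosphorylation −3.64 against −4.28. They were 0.71 against 1.20 for cAMP, 0.72 against −0.11 for the nuclear pore, 0.63 against 0.19 for decay and 2.31 against 0.50 for cumulus markers. Differences between these medians were not tested. Among single members Stag3 was at 0.19 in fresh and −4.62 in vitrified oocytes, Adcy3 at −1.41 and −4.53, Bub1 at −1.15 and −2.50 and Pabpc1l at −0.74 and −1.94. None of these 4 passed the interaction test of edgeR (adjusted p = 1.00 each). Ccnb1 rose by 3.13 ± 0.36 in fresh oocytes, with an interaction of −0.18 ± 0.42, Plat by 2.88 ± 0.35, with −0.04 ± 0.41, and Btg4 by 1.90 ± 0.30, with 0.54 ± 0.38 (SE throughout). For Gpr3 the call in vitrified oocytes had no counterpart in fresh ones (0.18 ± 0.42, adjusted p = 0.741 by edgeR), but the interaction did not pass (0.91 ± 0.58, SE, adjusted p = 1.00).

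**Figure D5:**
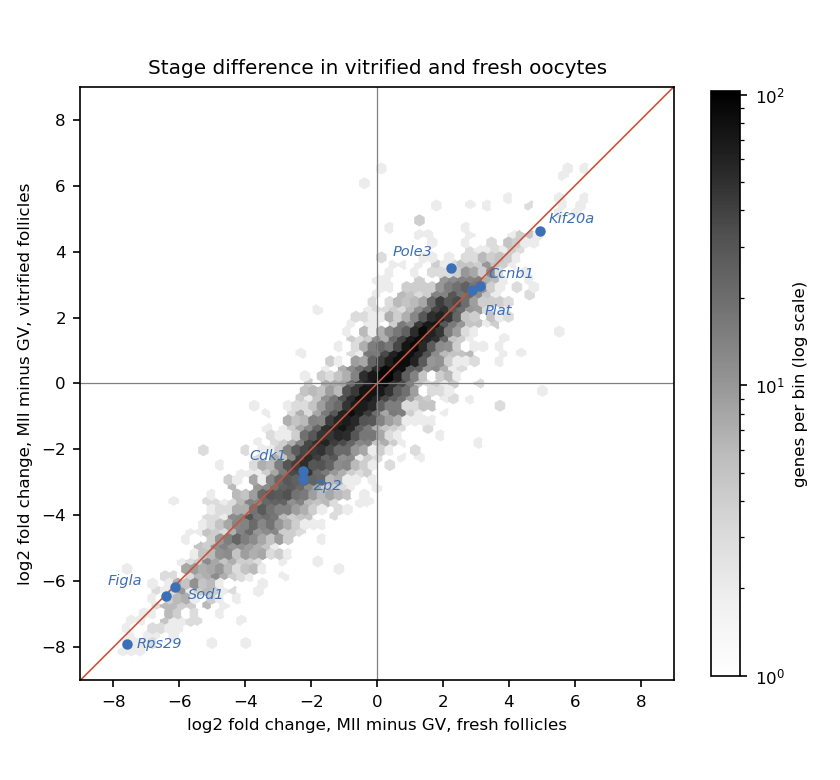
Log2 fold change of MII against GV oocytes in vitrified (y axis) and fresh follicles (x axis) for 11440 genes, shaded by the number of genes per bin (30 genes beyond ±9 are not drawn), with 9 genes marked and the line of equal change in red. Genes spread along the line of equal change, from Rps29 at the lower end to Kif20a at the upper.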

How the data were processed

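Single-oocyte RNA was sequenced in 32 oocytes. Per the submitters' processing notes HISAT2, featureCounts and the mm10 build were used; the sources used here give no versions or roles. The authors deposited 1 table holding whole counts for GV oocytes and partly fractional values for MII oocytes. These deposited fractional values are of the kind of an estimated count or expected count, the step that made them is not given by the authors in the sources used here, and they were rounded. Of 13202 entries 27 exact repeats were removed. The deposited counts were turned into CPM with scaling by the trimmed mean of M values (TMM).

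One edgeR (4.0.16, R 4.3.3) quasi-likelihood model with 4 group means was fitted to all 32 oocytes after a filter (minimum count 10, minimum total 15), with contrasts for stage after vitrification, stage after fresh culture and their interaction, and p-values were adjusted by Benjamini-Hochberg over 11470 genes. Library measures were compared by exact permutation. The fit was also run on simulated data with 200 changed genes, balanced up and down and far fewer than were called here. That run therefore does not give its error rates in these data. Gene positions, lengths and 3′ UTRs come from GENCODE M21 on GRCm38, matched for 13059 of 13175 genes. Distance between oocytes is 1 minus Spearman's rho.

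Genes were named by this rule: the 15 largest rises and falls among called genes whose mean log2 CPM was 5 or more, from each gene list the 6 members of smallest p at most, a list of 39 genes, and the 10 smallest interaction p-values. Other list members, and the genes with whole values, were named after their values were seen. The members and lists were chosen with earlier results of these data known. Alternatives were other scalings (total counts, median of ratios), filters, DESeq2 (1.42.0), limma-voom (3.58.1), a replicate block, a longer UTR window, subsets of genes or oocytes, and each oocyte left out in turn. Same-numbered GV and MII oocytes did not deviate together (r from −0.10 to 0.03 after vitrification), so the numbers were not treated as pairs. Some genes are not reported here.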

Additional observations from a re-analysis of the deposited data

Results flagged for a closer look

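Of 228 groups of 4 GV oocytes checked, 19 held 1 oocyte far from the other 3, with a gap, as a share of the group's range, above Dixon's 95% critical value, and 17 of these were GV vitrified replicate 1. Chance alone gives about 1 in 20 such groups, and the values share an oocyte, so they are not independent. In that oocyte Pttg1 measured 11885 CPM (1317 to 2869 in the others), Dppa3 16599 CPM, Gtsf1 4538 CPM, Timm17a 1817 CPM, Oog1, an oocyte-specific gene, 849 CPM (415 to 482 in the others), Omt2b, also oocyte-specific, 7366 CPM and Ranbp2, a nuclear pore gene, 42.8 CPM. Mia2 was at 0.0895 CPM there and at 0 in the others. Replicate 1 was low for Padi6, a maternal effect gene, at 478 CPM (1283 to 1354 in the others) and for Kdm1b at 43.4 CPM (65.0 to 67.8 in the others). It was also low for Clec2h at 0 against 0.0433 to 0.0507 CPM, and for Wee1 at 0.984 CPM (14.4 to 16.7 in the others). Mia2 and Clec2h were near 0 in all 4 GV oocytes, so their flags rest on values at the lower limit of counting.

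The same oocyte was high in summed levels: oocyte markers 23702 CPM (11242 to 12903 in the others), the anaphase-promoting complex and checkpoint 17610 CPM, oxidative phosphorylation 14499 CPM, mitochondrial ribosomal proteins 14279 CPM and calcium genes 11296 CPM. GV vitrified replicate 3 was low for Cpox, at 3.47 CPM against 12.4 to 13.5 CPM in the others. GV vitrified replicate 4 was high for Lhx8, an oocyte transcription factor, at 92.8 CPM against 64.9 to 68.1 CPM.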

How the results depend on the processing

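Leaving out each oocyte in turn gave 2455 to 2663 genes higher and 3550 to 3964 lower, and 0 to 4 interaction calls. Without GV replicate 1 the storage list had a median of 0.13 (range −0.35 to 0.13) and Dppa3 0.94 (range −0.65 to 0.94); without GV replicate 4 antioxidant enzymes had 0.43 (−0.21 to 0.43). Ranges were 0.085 to 0.46 for decay, −1.27 to −0.55 for oocyte markers, 2.13 to 2.72 for theca, blood and immune markers, −1213 to −900 for genes detected (MII minus GV), −1020.0 to −689 after thinning, and −0.0297 to −0.0035 for the distance between oocytes. Interaction calls numbered 3 with median-of-ratios scaling, 2 with at least 10 CPM in 4 oocytes, 8 with DESeq2 and 3 among genes with whole values.

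With total-count scaling list medians were 0.72 for M-phase kinases, 0.67 for cAMP, −0.71 for the anaphase-promoting complex, 1.00 for the spindle, −0.58 for storage, −0.24 for decay, −1.04 for maternal effect, −3.76 for mitochondrial ribosomes, −2.87 for the proteasome, −2.94 for histones, −2.07 for translation factors, −0.57 for the nuclear pore, −0.0053 for actin, −0.71 for calcium, −1.16 for heat shock, −0.64 for antioxidants, −1.61 for oocyte markers and −0.81 for all genes; Hsp90aa1 went to −0.45. With genes of whole values alone (1284 higher, 1745 lower) they were 2.05 for M-phase kinases, 0.90 for Mos-MAPK, −1.32 for the anaphase-promoting complex, −1.50 for storage, 0.39 for decay, 0.80 for dormant messages, −0.97 for oocyte identity, −2.14 for maternal effect, −2.74 for the proteasome, −1.68 for histones, −2.01 for translation factors, −0.12 for actin, 0.27 for calcium, 1.16 for heat shock and 0.62 for antioxidants, with Dcp2 at 0.75 and Itpr1 at 0.80; fewer genes enter that fit.

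The replicate block over numbers 1 to 4 gave 2181 genes higher and 3078 lower of 11190, against 2310 and 3517 in the same oocytes without it, with medians of 0.45 for decay, −0.77 for oocyte markers, −1.70 for cumulus markers and 2.91 for theca, blood and immune markers; the numbers share no stated source. With it Adcy9, Bmp15, Gpr3, Lmnb2, Mapk3, Pabpc1, Psmd2, Smc1b, Stag3 and Wee1 were not called. Cumulus markers were at −0.94 without vitrified MII replicates 1 and 12 and fresh MII replicates 1 and 11. Other changes were cAMP at 0.63 with no filter, histones at −3.93 with the strict filter, oocyte markers at −0.86 with limma-voom and decay at 0.44 with MII library numbers of 20 and over. With those library numbers the differences in genes detected were −530.2 and, thinned, −353, and did not pass, and the calls of Mos (0.53, adjusted p = 0.328), Mad2l1 (1.05, 0.0973), Dazl (0.78, 0.142), Cnot1 (−0.91, 0.0519), Adcy3 (−3.50), Cdc25b (−0.88, 0.171), Mapk3 (−0.55, 0.309), Pabpc1 (−2.18, 0.0821), Rack1 (0.41, 0.249) and Prdx1 (0.65, 0.0809) were lost. In the last 300 bases the element occurred in 51.2% of higher, 21.9% of lower and 35.3% of all genes, and the reversed letters in 49.6%, 25.9% and 37.7%. Of 199 named genes 35 changed call or direction under some alternative. The causes were not tested. With 4 GV oocytes, 1 of them apart, and lower totals in MII oocytes, small differences and low genes are the least certain.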
